A study of Homo sapiens with 12 samples.

Results

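The core circadian clock genes are followed here across SW1353 cells transfected with a mimic or an inhibitor of microRNA-455. They are 10 genes, NR1D1, NR1D2, PER1, PER2, PER3, CRY1, CRY2, CLOCK, BMAL1 and DBP, out of 40490 genes in the files, found by the Ensembl identifiers that carry these symbols (BMAL1 is ARNTL in older names). The group was picked out because NR1D1 was lower with the mimic, so the mimic against mimic control comparison is described here for all 10 genes with no test. All 10 genes passed the filter on low values and were among the 16468 genes tested.

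SW1353 is a human cell line from a chondrosarcoma, a cartilage tumor, and is a single tumor line. The cells were transfected at 50 nM with 1 of 4 short oligonucleotides: a miR-455 mimic, its mimic control, a miR-455 inhibitor or its inhibitor control, and RNA was taken after 48 hours. RNA-seq was run on 3 libraries of each of the 4 groups, 12 in all. As far as the labels say, the groups differ by the transfected oligonucleotide alone, all carry the transfection, and there is no untransfected group. Of 11 chondrocyte markers, COL2A1, the main collagen of cartilage, was listed at 0 in all 12 libraries, and 3 had a mean of at least 20 (SOX9, COL11A1 and COL11A2), so the defining collagen of a chondrocyte was not listed above 0 in these cells. The summed signal of the 11 markers was 1575 to 1676 in mimic control, 1738 to 1964 in mimic, 1407 to 1589 in inhibitor control and 1651 to 1845 in inhibitor, and its part in the clock values was not tested. Each value is a normalized signal: the reads assigned to a gene, divided by a size factor for the library. It is not corrected for gene length.

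The circadian clock is a feedback loop within each cell that makes transcription rise and fall over about a day. CLOCK and BMAL1 form a dimer that binds E-box sequences and switches on the PER and CRY genes, whose proteins return to the nucleus and block that dimer. A further loop is closed by NR1D1 and NR1D2, nuclear receptors switched on by CLOCK and BMAL1 that repress BMAL1 in turn, and DBP passes the rhythm on to genes that carry D-box sequences. Cartilage cells have such a clock, and serum, glucocorticoids and cAMP signals can reset it in culture. All libraries were taken at a single time after transfection, so a change in the level of a clock gene and a change in its phase cannot be told apart. In RNA from whole wells, fewer cells that express a gene and less RNA of it per cell cannot be told apart either.

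The microRNA and its matches in these genes are shown first, since the comparison with the mimic is one of added microRNA. The sequence of the mimic itself is not given in the sources used here, and the series is named for microRNA-455-3p. The mature microRNA, from RefSeq on GRCh38, comes from chr9:114209487-114209507 on the plus strand, and capitals mark its seed, bases 2 to 8 from the 5′ end.
hsa-miR-455-3p: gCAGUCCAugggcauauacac
The letters that pair with this seed, TGGACTG, were looked for in the longest annotated 3′ UTR of each gene (GENCODE release 29, GRCh38). NR1D1, NR1D2, PER1, CRY1 and BMAL1 held no match to the 6-base core, and the 3′ UTR of NR1D1 is short, with 296 bases. PER2 and PER3 held 1 core each. CLOCK held the only match to the full seed among the 10 genes, in its last exon, exon 22 of 22, within a 3′ UTR of 7512 bases, and CLOCK, CRY2 and DBP also held a core followed by an A. Those sites are printed with 10 or 11 bases on each side, capitals marking the match.
CLOCK, 7 bases of the seed, chr4:55434046-55434052, minus strand: atcagtctctTGGACTGgaggtacaaat
CLOCK, core and A, chr4:55430605-55430611, minus strand: ttgcacaaaaaGGACTGAgaaaaagaat
CRY2, core and A, chr11:45881526-45881532, plus strand: ttgggcttctgGGACTGAgcatgaggcc
DBP, core and A, chr19:48630044-48630050, minus strand: ggcaagcgtcaGGACTGAgccctgcccc
Among 13940 tested genes with an annotated 3′ UTR, 33.9% held the core and 13.3% held the full seed match. A match in letters is a description and not a shown binding site.

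Depth, estimated from the signal that a single read is worth in each library, was 10517890 to 12467909 reads. Mimic replicate 3 stood apart. On the first principal component over all tested genes, 24.99% of the variance, it lay at 20.9, beside the inhibitor control libraries (21.1 to 31.7), whereas mimic replicates 1 and 2 lay at -59.7 and -41.5. Mitochondrial transcripts made up 6.09% of its signal, the lowest share of the 12 libraries, which ran up to 9.93%. For that reason the differences of the 10 clock genes with the mimic are given with and without this library.

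Per kilobase of the longest annotated transcript, averaged over all 12 libraries, the 10 genes spanned a 104.7-fold range of level. NR1D1 was the highest at 249.96 ± 64.9 signal per kb (SD, n = 12 libraries). NR1D2 (136 ± 47.1), DBP (134 ± 18.4) and BMAL1 (82.6 ± 27.5) followed, then PER3 (39.6 ± 8.83) and CRY1 (37.2 ± 3.82), then PER1 (11.6 ± 4.01), CRY2 (9.19 ± 1.48) and CLOCK (7.07 ± 1.61). PER2 was the lowest at 2.39 ± 0.528 signal per kb. The ranges over libraries overlapped between most neighbors in this order. They did not overlap between CRY1 and PER1 or between CLOCK and PER2. The order rests on annotated lengths, 2772 bases for NR1D1 (1 annotated transcript) and 5756 for DBP (5 annotated transcripts). A gene read mainly from a shorter transcript would be placed too low, and transcript use was not tested. The length of all merged exons is never below that of the longest transcript, so it does not address this. With it the order was the same. By group, the order turned for 3 pairs. DBP was above NR1D2 in inhibitor control (136 against 108 signal per kb) and inhibitor (133 against 82.0), CRY1 was above PER3 in both of these groups (38.6 against 35.9, and 35.0 against 28.6), and CLOCK was above CRY2 in mimic (8.89 against 8.30).

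NR1D1 (ENSG00000126368, chr17:40092787-40100725, minus strand, GRCh38), also called REV-ERB alpha, is a heme-binding receptor that represses transcription. Its normalized signal was 997.4, 874.1 and 1048.1 in the mimic control libraries 1 to 3 and 659.1, 688.9 and 671.6 in the mimic libraries. In the inhibitor control libraries it was 575.5, 540.8 and 572.9, and in the inhibitor libraries 544.7, 576.5 and 565.0. The mimic control group stood above the other 9 libraries with no overlap, and the mimic group lay between it and both inhibitor groups. The mean in the mimic libraries was 0.692 times that in mimic control, a log2 difference of -0.53 ± 0.084 (SE), which is the value the genes were chosen by, and it was -0.53 without mimic replicate 3. Leaving out any 1 library kept this difference between -0.60 and -0.47. The 2 control groups, neither of which received miR-455, differed by more: the inhibitor control mean was 0.579 times the mimic control mean, a log2 difference of -0.79 ± 0.084. This value is given with no test because it shares the mimic control libraries with the comparison that chose NR1D1. With the inhibitor against its own control, NR1D1 had a ratio of 0.998 and did not pass the test (limma, Benjamini-Hochberg adjusted p = 0.994, the largest of the 10 genes).

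NR1D2 (ENSG00000174738, chr3:23945260-23980618, plus strand), or REV-ERB beta, is the close relative of NR1D1 and acts on the same DNA element. It measured 946.0, 935.7 and 1105.5 in mimic control, 942.9, 942.5 and 737.7 in mimic, 551.0, 536.8 and 610.4 in inhibitor control and 449.7, 374.6 and 469.8 in inhibitor. All 6 libraries of the 2 inhibitor groups were below all 6 of the mimic groups, and the inhibitor libraries were below every inhibitor control library. Inhibitor control was lower than mimic control by a ratio of 0.569 (log2 difference -0.81 ± 0.12, limma adjusted p = 0.00411), and this call held under all 23 alternatives. The inhibitor against inhibitor control ratio was 0.762 (log2 difference -0.40 ± 0.12), which did not pass the test (adjusted p = 0.152). It passed in 2 of the alternatives, without mimic replicate 3 (adjusted p = 0.0479) and with array weights (adjusted p = 0.0341), and the adjusted p ran from 0.0341 to 0.345 over the 23. The mimic against mimic control log2 difference was -0.19 ± 0.12 with overlapping groups, and -0.07 without mimic replicate 3.

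**Figure D1:**
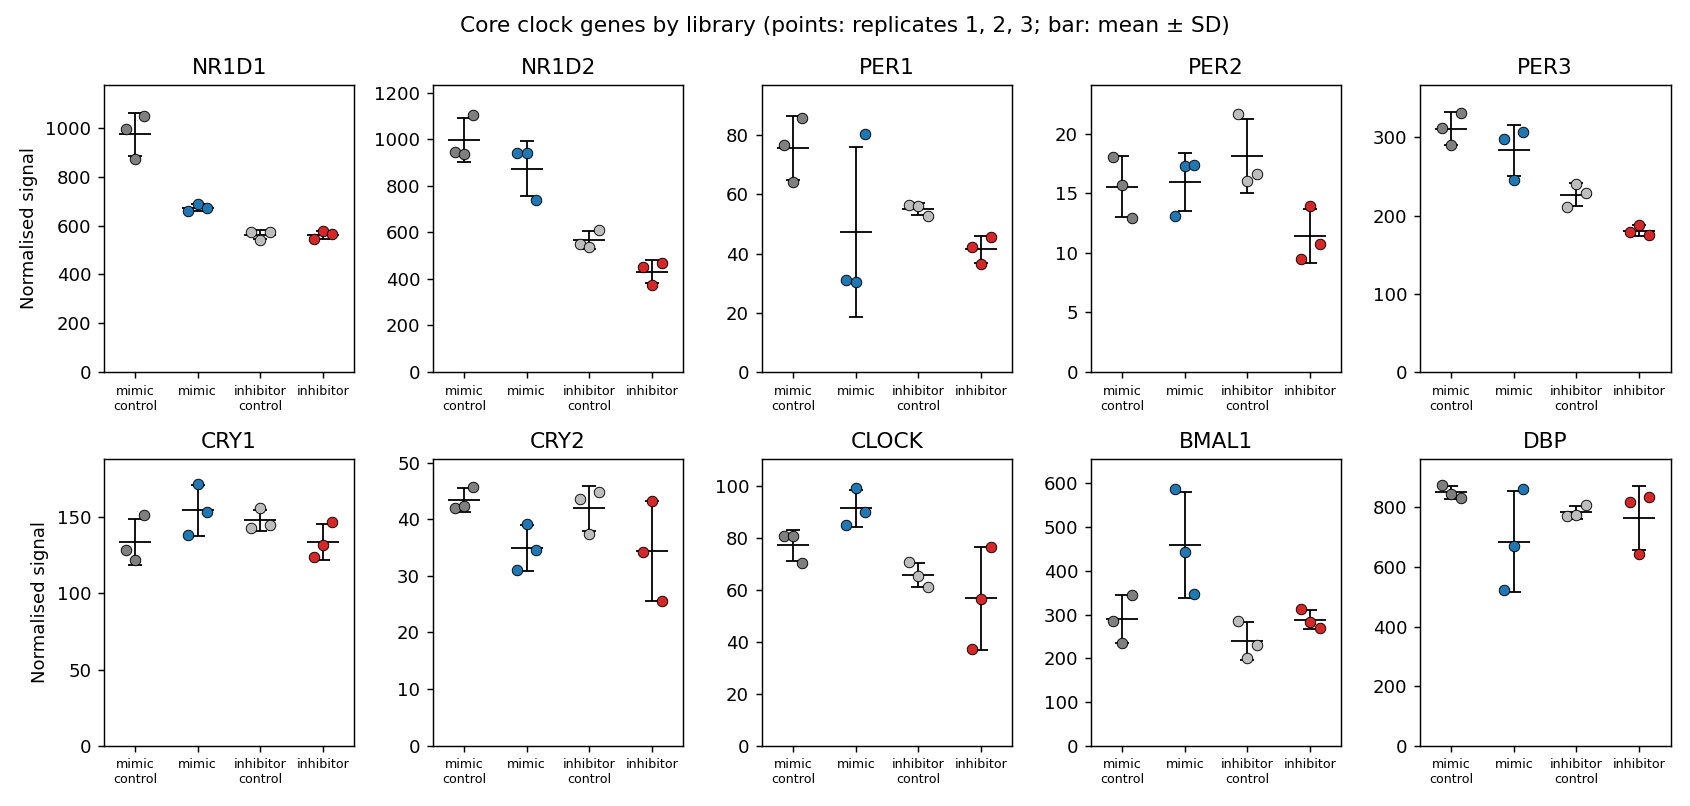
Normalized signal (vertical axes, each from 0) of the 10 core clock genes in the 4 groups (horizontal axes); points are libraries 1 to 3 from left to right and bars are mean ± SD. NR1D1 is highest in the 3 mimic control libraries (874.1 to 1048.1), NR1D2 is lower in both inhibitor groups, and in PER1 mimic replicate 3 (80.3) is far from mimic replicates 1 and 2 (31.1 and 30.3).

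The receptor pair did not keep the same proportion in all groups. The ratio of NR1D1 signal to NR1D2 signal within a library was 1.05, 0.934 and 0.948 in mimic control and 1.04, 1.01 and 0.939 in inhibitor control. It was 0.699, 0.731 and 0.910 in mimic, below every mimic control library, and 1.21, 1.54 and 1.20 in inhibitor, above every inhibitor control library. These ratios are descriptions, since NR1D1 entered the choice of the genes.

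BMAL1 (ENSG00000133794, chr11:13276652-13387266, plus strand) is the partner of CLOCK and the best known gene repressed by the NR1D receptors. Its signal was 286.3, 236.1 and 345.4 in mimic control, 588.2, 443.0 and 346.7 in mimic, 285.6, 200.8 and 230.5 in inhibitor control and 312.0, 282.4 and 269.6 in inhibitor. The mimic libraries were all above the mimic control libraries, but mimic replicate 3 by a narrow margin (346.7 against 345.4). The log2 difference with the mimic was 0.65 ± 0.19, the highest of the 10 genes, and it was 0.84 without mimic replicate 3. The inhibitor against inhibitor control log2 difference was 0.28 ± 0.19 (limma adjusted p = 0.551) and the inhibitor control against mimic control difference was -0.27 ± 0.19 (adjusted p = 0.376), neither past the test. Between the 2 control groups, then, the fitted values of NR1D1 and BMAL1 were both below 0, whereas with the mimic NR1D1 was below 0 and BMAL1 above.

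The BMAL1 to NR1D1 ratio within a library put these values together. It was 0.287, 0.270 and 0.330 in mimic control and 0.892, 0.643 and 0.516 in mimic. Inhibitor control libraries had 0.496, 0.371 and 0.402 and inhibitor libraries 0.573, 0.490 and 0.477. Every mimic library was above every mimic control library, and so was every library of both inhibitor groups. The inhibitor and inhibitor control libraries overlapped. These ratios too are descriptions, since NR1D1 was chosen for being lower in mimic than in mimic control. A high NR1D1 signal in mimic control by itself lowers the ratio there against every other group.

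**Figure D2:**
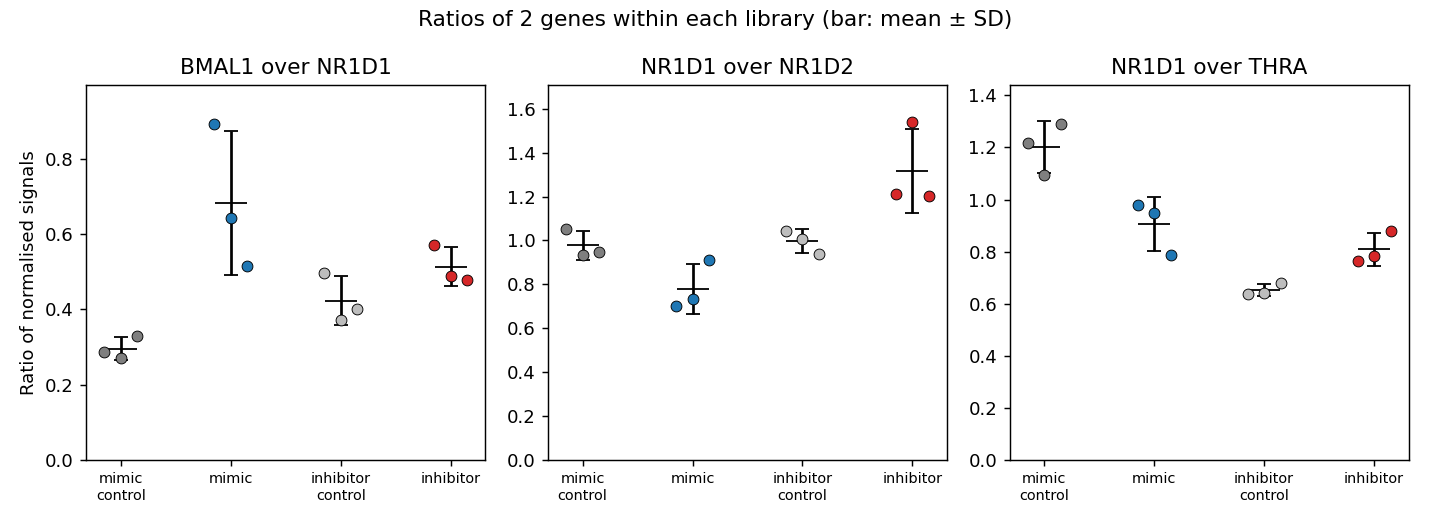
Ratio of the normalized signals of a pair of genes within each library (vertical axes, no unit, from 0) in the 4 groups; points are libraries and bars are mean ± SD. BMAL1 over NR1D1 is lowest in mimic control (0.270 to 0.330), NR1D1 over NR1D2 is highest in inhibitor (1.20 to 1.54), and NR1D1 over THRA, the gene on the other strand, is lowest in inhibitor control (0.636 to 0.678).

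CLOCK (ENSG00000134852, chr4:55427903-55547138, minus strand), the histone acetyltransferase partner of BMAL1 and the gene with the full seed match above, was not lower with the mimic. It measured 80.8, 80.8 and 70.3 in mimic control, 85.3, 99.4 and 90.04 in mimic, 70.8, 65.6 and 61.3 in inhibitor control and 37.2, 56.5 and 76.8 in inhibitor. The 3 mimic libraries were the highest of the 12, and the inhibitor libraries were the most spread. The log2 difference was 0.24 ± 0.22 with the mimic (0.25 without mimic replicate 3) and -0.27 ± 0.22 with the inhibitor (limma adjusted p = 0.62). The latter moved from -0.52 to 0.00 when single libraries were left out.

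PER1 (ENSG00000179094, chr17:8140472-8156506, minus strand) is a repressor of CLOCK and BMAL1 that also responds quickly to glucocorticoids and cAMP. Its signal was 76.7, 64.3 and 85.8 in mimic control and 31.1, 30.3 and 80.3 in mimic, 56.4, 56.1 and 52.6 in inhibitor control and 42.3, 36.5 and 45.5 in inhibitor. Mimic replicates 1 and 2 were the lowest of the 12 libraries and mimic replicate 3 was the second highest. The log2 difference with the mimic was -0.82 ± 0.31 with this library and -1.28 without it, so a single library decides its size. The 3 inhibitor libraries were below the 3 inhibitor control libraries (log2 difference -0.41 ± 0.31), which did not pass the test (limma adjusted p = 0.588). The SE of PER1 includes the spread of the mimic group, because the 4 groups share 1 estimate. Without mimic replicate 3 its adjusted p was 0.211, the smallest over the alternatives.

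PER2 (ENSG00000132326, chr2:238244038-238290102, minus strand) acts with the CRY proteins in the same repressor complex. It was the faintest of the 10 genes, with 18.1, 15.7 and 12.9 in mimic control, 13.1, 17.3 and 17.4 in mimic, 21.7, 16.0 and 16.6 in inhibitor control and 9.50, 14.0 and 10.8 in inhibitor. A single read is worth about 0.901 to 1.10 units of signal in these libraries, so these values stand for few reads. All 3 inhibitor libraries were below the inhibitor control libraries (log2 difference -0.65 ± 0.29, the lowest of the 10 genes), which did not pass the test (limma adjusted p = 0.336). The other comparisons gave 0.03 with the mimic (-0.03 without mimic replicate 3) and 0.21 between the controls.

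PER3 (ENSG00000049246, chr1:7784320-7845177, plus strand), the third PER protein, is also under D-box control. It measured 311.7, 290.4 and 331.6 in mimic control, 297.3, 245.9 and 307.1 in mimic, 211.4, 240.1 and 228.8 in inhibitor control and 178.7, 188.2 and 174.8 in inhibitor. The inhibitor control libraries were all below the mimic control libraries, and the inhibitor libraries were all below both. Inhibitor control was lower than mimic control by a log2 difference of -0.46 ± 0.11 (limma adjusted p = 0.0271). This call was lost whichever 1 of the 6 libraries compared was left out, with adjusted p of 0.0510 to 0.109. The inhibitor against inhibitor control difference was -0.33 ± 0.11 and did not pass (adjusted p = 0.192). With the mimic it was -0.14 ± 0.11, or -0.20 without mimic replicate 3.

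CRY1 (ENSG00000008405, chr12:106991364-107093829, minus strand) and CRY2 (ENSG00000121671, chr11:45847118-45883248, plus strand) bind CLOCK and BMAL1 and silence them. CRY1 lay between 122.2 and 171.8 in all 12 libraries, with overlapping groups in every comparison, and log2 differences of 0.21, 0.15 and -0.14 for the mimic (also 0.21 without mimic replicate 3), the controls and the inhibitor. CRY2 was 42.0, 42.3 and 45.8 in mimic control and 31.0, 39.2 and 34.5 in mimic, below every mimic control library, with a log2 difference of -0.31 ± 0.21 (-0.31 without mimic replicate 3). In inhibitor control it was 43.5, 37.3 and 44.8 and in inhibitor 34.2, 43.2 and 25.6, overlapping groups with a log2 difference of -0.31 ± 0.21 (limma adjusted p = 0.551).

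DBP (ENSG00000105516, chr19:48630030-48637438, minus strand) is a transcription factor that CLOCK and BMAL1 drive directly and that activates D-box genes. Its signal was 873.7, 845.7 and 831.8 in mimic control, 523.9, 669.4 and 860.6 in mimic, 769.3, 772.8 and 807.2 in inhibitor control and 819.1, 642.1 and 834.5 in inhibitor. Mimic replicate 3 lay within the mimic control range and mimic replicate 1 was the lowest of the 12. The log2 difference with the mimic was -0.34 ± 0.15, or -0.52 without mimic replicate 3. The differences between the controls (-0.12 ± 0.15) and with the inhibitor (-0.04 ± 0.15) did not pass the test (limma adjusted p = 0.641 and 0.932).

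Set against all tested genes, the inhibitor comparison called none of the 10 clock genes (limma, adjusted p under 0.05), where 1.55% of all 16468 genes were called. At an unadjusted p under 0.05 there were 3, NR1D2, PER2 and PER3, where 14.5% of all tested genes had such a p. The fitted difference was below 0 for 9 of the 10, BMAL1 being the exception, where 7603 of all 16468 genes were below 0. NR1D1, CLOCK and DBP came out above 0, though, when certain single libraries were left out. The median of the 10 was -0.29 against 0.03 for all tested genes. For NR1D2, PER1, PER2 and PER3 all 3 inhibitor libraries were below all 3 inhibitor control libraries. None of the 10 was higher without overlap. Of all tested genes, 10.9% were lower and 14.4% higher in this way. DBP and NR1D1 had the smallest differences.

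The comparison of the 2 control groups shows how far the clock genes differed between cells that received no miR-455 oligonucleotide. Of the 9 clock genes tested there, NR1D2 and PER3 fell and none rose, where 5.38% of all tested genes were called lower in inhibitor control and 4.74% higher. These 2 were also the only ones of the 9 with an unadjusted p under 0.05 (limma), where 29.2% of all tested genes had such a p. Without NR1D1, which was chosen with the mimic control libraries, the median of the other 9 fitted differences was -0.23 against -0.02 for all tested genes. The groups did not overlap for 4 of these 9, all lower in inhibitor control (NR1D2, PER1, PER3 and DBP). Of all tested genes, 21.6% were lower and 19.7% higher without overlap. Fitted values for PER2 and CRY1 were above 0. CD68, the only marker of 8 for epithelial, blood and endothelial cells with a mean of at least 20, was also lower in inhibitor control (log2 difference -0.75, adjusted p = 0.0207). The summed signal of those 8 markers was 4579 to 4944 in mimic control, 2533 to 4594 in mimic, 2840 to 2926 in inhibitor control and 3030.2 to 3971 in inhibitor, nearly all of it CD68. Mitochondrial transcripts made up 8.21% to 9.93% of the signal in mimic control and 6.45% to 8.08% in inhibitor control, with no overlap. The part of either in the clock values was not tested.

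With the mimic the fitted difference was below 0 for 6 of the 10 genes and above 0 for 4 (BMAL1, CLOCK, CRY1 and PER2, the last below 0 without mimic replicate 3 and in 3 other alternatives), with a median of -0.17 against 0.01 for all tested genes. Of all 16468 tested genes, 7892 were below 0 and 8576 above. The groups did not overlap for NR1D1 and CRY2, which were lower, and for CLOCK and BMAL1, which were higher. Across all tested genes 6.47% were lower and 9.92% higher without overlap, and 0.759% were called by limma. Nothing is read from these counts, because NR1D1 was chosen on this comparison. The mimic and control comparisons share the mimic control libraries, and the control and inhibitor comparisons share the inhibitor control libraries.

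**Figure D3:**
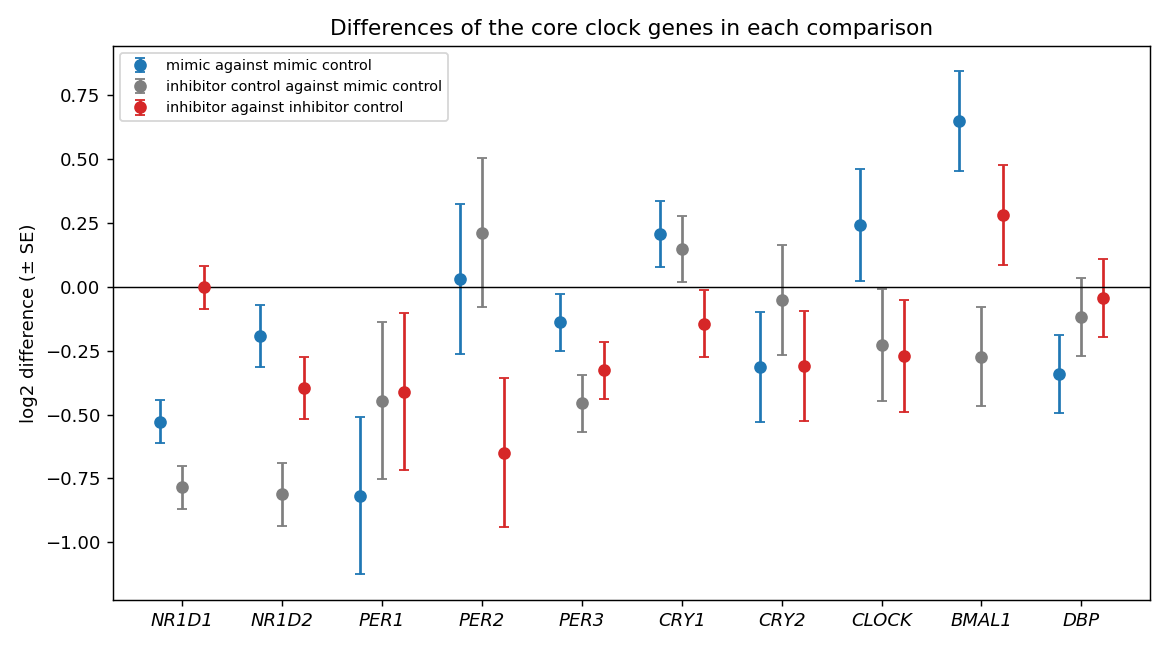
Fitted log2 difference ± SE (vertical axis) of each core clock gene (horizontal axis) for mimic against mimic control (blue), inhibitor control against mimic control (gray) and inhibitor against inhibitor control (red). NR1D1 is at -0.53 and -0.79 in the first and second and near 0 in the third; BMAL1 is at 0.65, -0.27 and 0.28; PER1 has the widest bars, ± 0.31.

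Several clock genes overlap a neighbor, and whether the libraries keep strand is not given in the sources used here. NR1D1 overlaps THRA, a thyroid hormone receptor on the opposite strand, by 263 exon bases. THRA signal was 819.5, 800.0 and 812.3 in mimic control, 672.5, 727.1 and 851.7 in mimic, 905.5, 845.3 and 845.6 in inhibitor control and 714.9, 736.5 and 642.5 in inhibitor. Between the controls THRA had a log2 difference of 0.09 where NR1D1 had -0.79, and with the inhibitor -0.31 where NR1D1 was near 0. The latter THRA value did not pass the test (limma adjusted p = 0.144), though it did in 2 of the 23 alternatives (down to 0.0161). With the mimic both were below 0, THRA by a log2 difference of -0.12 (-0.21 without mimic replicate 3) and NR1D1 of -0.53. DBP shares 661 exon bases with SPHK2, a sphingosine kinase on the opposite strand, which had a log2 difference of 0.44 between the controls against -0.12 for DBP. PER1 shares 30 exon bases with AC129492.3 on its own strand, which measured 18.1, 18.6 and 70.3 in the mimic libraries, so this gene was also high in mimic replicate 3. Between the controls AC129492.3 had a log2 difference of 0.61 ± 0.42 where PER1 had -0.45, neither past the test (limma adjusted p = 0.359 for both). With the inhibitor it had -0.39 where PER1 had -0.41. CLOCK shares 76 exon bases with TMEM165 on the opposite strand. PER3 shares 868 with UTS2, which reached 3.09 at most. For NR1D2, NKIRAS1 overlaps on the opposite strand with no exon base in common.

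Promoter stretches are shown for NR1D2, PER3 and PER1, which were lower without overlap in inhibitor control than in mimic control and whose windows held a searched motif. NR1D1 and DBP were also lower in this way but held none. RefSeq windows from 250 bases before to 50 after each annotated start (GRCh38.p14, 15 windows for the 10 genes) were searched on both strands for the E-box CACGTG, the core AGGTCA of the element bound by NR1D and ROR receptors, and the D-boxes TTATGTAA and TTACGTAA. Capitals mark the match, with 20 bases on each side.
NR1D2, E-box, chr3:23945946-23945991, plus strand: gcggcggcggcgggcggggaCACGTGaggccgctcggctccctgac
NR1D2, E-box, chr3:23945996-23946041, plus strand: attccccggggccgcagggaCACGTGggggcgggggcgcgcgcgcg
NR1D2, D-box read on the other strand, chr3:23945907-23945954, plus strand: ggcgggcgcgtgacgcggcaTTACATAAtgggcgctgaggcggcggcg
PER3, D-box, chr1:7784094-7784141, plus strand: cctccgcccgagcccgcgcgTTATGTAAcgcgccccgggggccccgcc
PER1, E-box, chr17:8152552-8152597, minus strand: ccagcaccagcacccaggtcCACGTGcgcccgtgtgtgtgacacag
PER1, receptor core read on the other strand, chr17:8152523-8152568, minus strand: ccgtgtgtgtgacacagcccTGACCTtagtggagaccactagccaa
PER2 also held a D-box, CRY2 a receptor core in each of 2 windows and BMAL1 a receptor core after its start. The windows of NR1D1, CRY1, CLOCK and DBP held none of these letters, which says only that they are not within this stretch. Of 35116 RefSeq windows of the same length, 7.26% held the E-box, 13.8% the receptor core and 1.01% a D-box.

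The rest of the clock was followed in 20 further components, of which 17 passed the filter, and 15 cofactors, which all passed. RORA, a receptor that activates BMAL1, passed with group means between 18.2 and 32.8. With the inhibitor none of the 32 passed the test (limma), and 7 had an unadjusted p under 0.05, where 14.5% of all tested genes did. The nearest was CIART, a repressor of CLOCK and BMAL1, with 129.7, 130.9 and 170.0 in inhibitor control and 91.5, 99.6 and 89.7 in inhibitor. These groups did not overlap (log2 difference -0.60 ± 0.14, adjusted p = 0.0589). The adjusted p for CIART was under 0.05 in 6 of the 23 alternatives, down to 0.0151 with array weights. TEF, a relative of DBP, had the next smallest p, with a log2 difference of -0.30 ± 0.11 (adjusted p = 0.202).

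Between the controls 3 of the 32 fell and none rose, where 5.38% of all tested genes were called lower and 4.74% higher. At an unadjusted p under 0.05 (limma) there were 9 of the 32, near the share of 29.2% over all tested genes. BHLHE41, a repressor that binds E-boxes, was 109.7, 129.96 and 115.9 in mimic control and 61.0, 34.5 and 54.1 in inhibitor control (log2 difference -1.28 ± 0.25, limma adjusted p = 0.0126). NFIL3, which represses the D-box genes that DBP activates, had a log2 difference of -0.59 ± 0.11 (adjusted p = 0.0124). KAT2B, an acetyltransferase that works with CLOCK, had -0.71 ± 0.16 (adjusted p = 0.019). None of the 3 held under every choice of libraries. Without mimic control replicate 3 all were lost, with adjusted p of 0.0504 for BHLHE41, 0.0621 for NFIL3 and 0.0737 for KAT2B. Without inhibitor control replicate 1 NFIL3 (0.0632) and KAT2B (0.0812) were lost, and KAT2B also without mimic control replicate 1 (0.0599) or 2 (0.0514) or inhibitor control replicate 2 (0.0744). The median over the 32 genes was -0.13 against -0.02 for all tested genes. With the mimic none of the 32 was called by limma, and 4 had an unadjusted p under 0.05, near the share of 13.2% over all tested genes. Of those 4, BHLHE41 was lower, with a log2 difference of -0.59 (limma adjusted p = 0.325), or -0.39 without mimic replicate 3. KAT2B was also lower (-0.45 ± 0.16, adjusted p = 0.227). TEF (0.43 ± 0.11, adjusted p = 0.0971) and BMAL2 (0.29 ± 0.090, adjusted p = 0.171) were higher. The groups did not overlap for any of the 4.

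By the mean over all 12 libraries, the most abundant of the further components were CSNK1E, a kinase that marks PER proteins for breakdown, with group means of 1890.1 to 2359.9, and its relative CSNK1D, with 1046.8 to 1134.5. Neither passed the test in any of the 3 comparisons. CSNK1E had a log2 difference between the controls of 0.26 ± 0.097 (limma adjusted p = 0.104) and CSNK1D of -0.03 ± 0.066 (adjusted p = 0.83). Among the cofactors the most abundant were NONO, which binds PER proteins, and DDB1, a part of ubiquitin ligases. With the inhibitor, NONO had 0.11 ± 0.077 and DDB1 -0.08 ± 0.064 (adjusted p = 0.574 and 0.634). The smallest p among the cofactors in that comparison belonged to PPARGC1A, a coactivator of the ROR receptors, and SIRT1, a deacetylase that acts on BMAL1 and PER2. PPARGC1A had -0.55 ± 0.21 (adjusted p = 0.246) and SIRT1 0.33 ± 0.15 (adjusted p = 0.333).

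**Figure D4:**
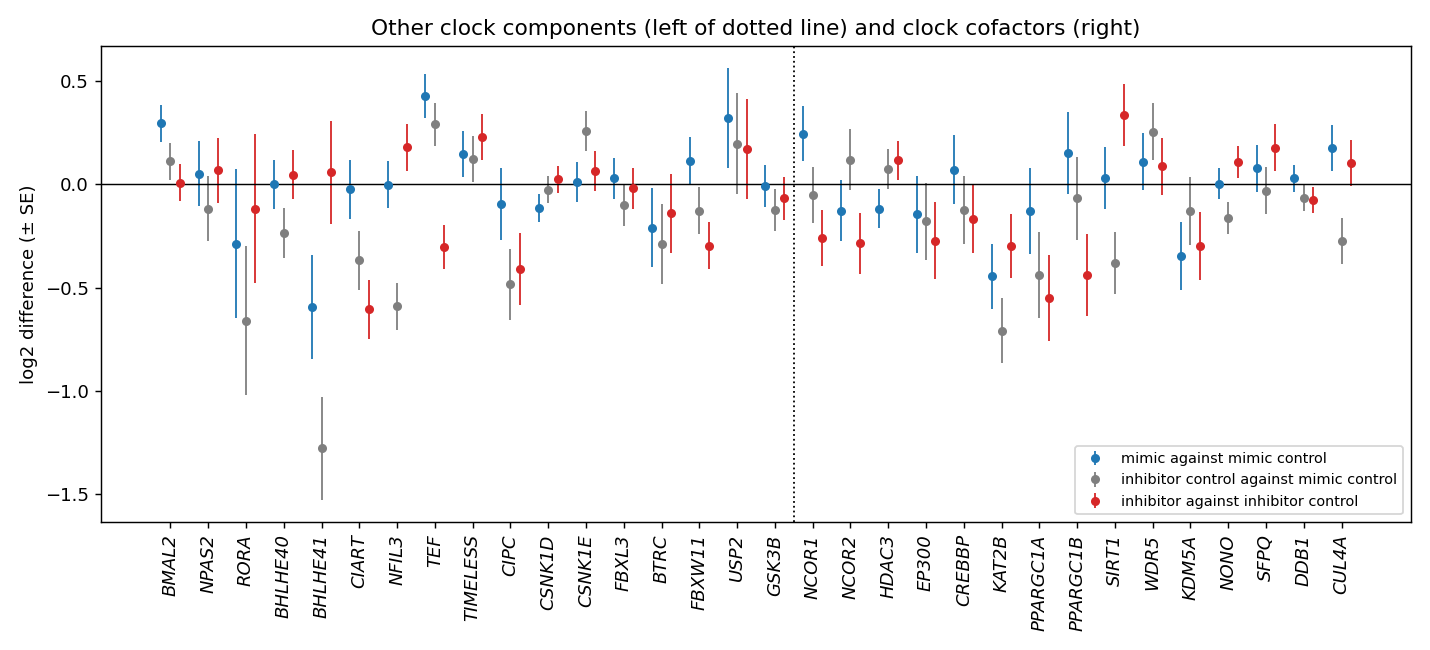
Fitted log2 difference ± SE (vertical axis) of 17 further clock components (left of the dotted line) and 15 clock cofactors (right), in the 3 comparisons. BHLHE41 is the lowest between the controls at -1.28, CIART the lowest with the inhibitor at -0.60, and most other points lie within 0.5 of 0.

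Genes on either side of the clock were read from a list of 6 clock outputs and 13 genes that respond to or carry the glucocorticoid and cAMP signals that reset it, 17 of which passed the filter. Between the controls 4 fell and none rose, where 5.38% of all tested genes were called lower and 4.74% higher. At an unadjusted p under 0.05 (limma) there were 7 of the 17, where 29.2% of all tested genes had such a p. CRISPLD2, SGK1 and ERRFI1, known glucocorticoid-induced genes, were among the 4 that fell. CRISPLD2, a secreted protein, had a log2 difference of -0.76 ± 0.12 (limma adjusted p = 0.00487). SGK1, a kinase, had -0.73 ± 0.15 (adjusted p = 0.0141), a call lost without mimic control replicate 3 (adjusted p = 0.0673) or without inhibitor control replicate 1 (0.0588) or 2 (0.0624). ERRFI1, an inhibitor of the EGF receptor, was 2280.2, 1966.1 and 2357.0 in mimic control and 1111.4, 1072.7 and 967.6 in inhibitor control (log2 difference -1.06 ± 0.091, adjusted p = 8.18e-05). CDKN1A, a cell cycle inhibitor, and FKBP5, a glucocorticoid-induced chaperone, were abundant members of this list and had -0.29 ± 0.12 and 0.00 ± 0.079 between the controls (adjusted p = 0.134 and 0.99). Of the 13 glucocorticoid and cAMP genes 11 were tested, and 5 had fitted differences above 0 and 6 below. Of all 16468 tested genes, 7892 were above 0 and 8576 below. DUSP1 (0.30 ± 0.12, limma adjusted p = 0.106) and EGR1 (0.80 ± 0.24, adjusted p = 0.0518) were higher in inhibitor control without overlap. TSC22D3 had 0.07 ± 0.14 (adjusted p = 0.805).

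With the inhibitor 3 of the 17 had an unadjusted p under 0.05 (limma), where 14.5% of all tested genes did, and 1.55% of all tested genes were called. ERRFI1 alone of the 17 was called, and it rose, with 1405.8, 1437.1 and 1469.3 in the inhibitor libraries (log2 difference 0.45 ± 0.091, limma adjusted p = 0.0272). This call was lost when any of the 6 libraries compared was left out (adjusted p 0.0631 to 0.110) and with a spread that does not depend on the level (0.0753). PPARA, a nuclear receptor for lipids, had a log2 difference of -0.42 ± 0.18 (adjusted p = 0.307). With the mimic none of the 17 was called by limma, and 4 had an unadjusted p under 0.05, where 13.2% of all tested genes did.

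The genes whose pattern over the 12 libraries was most like that of NR1D1 were found by the root mean square difference of log2 signal after centering each gene on its own mean, over 16467 genes. They were SLC35D1 (0.114), JMJD1C (0.116), RB1CC1 (0.117), FER1L6 (0.120) and SNX27 (0.128), where the median gene had 0.427. Mean SLC35D1 signal, for example, was 621.5 in mimic control, 450.5 in mimic, 392.4 in inhibitor control and 356.1 in inhibitor. Among the clock genes PER3 was the most like NR1D1 (0.207, rank 316) and NR1D2 the next (0.297, rank 2678). BMAL1 was further from NR1D1 than the median gene (0.475, rank 9954). The 12 libraries include those NR1D1 was chosen by, so the likeness is a description. The measure also grows with the spread of a gene between replicates, which adds to the distance of faint genes.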

How the data were processed

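RNA-seq of 12 SW1353 libraries, 4 groups of 3, was read from 1 table per library. Per the labels the authors used FastQC, Trim Galore, kallisto and sleuth on hg38. The sources used here give no versions, transcript annotation or strandedness. Deposited tables hold normalized signal: kallisto's estimated counts, summed per Ensembl gene and divided by sleuth size factors. They are not whole reads: between 75.6% and 78.6% of low values lay within 0.02 of a whole multiple of a step, so no count test was run. Normalized totals, after this scaling, ran from 10974101 to 12016813 per library.

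Genes with signal of at least 5 in at least 47% of libraries (16468 of 40490) were fitted on log2(signal + 0.5) with limma 3.58.1 (R 4.3.3), 4 group means over all 12 libraries, eBayes with trend, two-sided, Benjamini-Hochberg threshold 0.05 over all genes. Fold changes on this scale understate low genes. The linear ratios are of group means.

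All 10 clock genes are named. Of the other lists, called genes and otherwise the lowest p with the inhibitor and the highest means are named, as are overlapping genes and the 5 genes most like NR1D1. Further components and cofactors with an unadjusted p under 0.05 (limma) with the mimic are named too. Some genes of these lists are counted but not reported here. The genes and lists were chosen with earlier results of these data known. Whether replicates are separate cultures is not given, so p-values measure the spread between these libraries, which may be technical. Replicates of 1 group correlated at 0.944 to 0.972, and libraries of different groups at 0.937 to 0.969, nearly the same range. The fit was tested on simulated data. Alternatives were other pseudocounts, filters, scalings, samples, weights and priors, a replicate block, and leaving out each library.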

Additional observations from a re-analysis of the deposited data

How the results depend on the processing

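No called value changed direction under the 23 alternatives. Values not called that changed sign in at least 1 of them were NR1D1, CLOCK, DBP and BHLHE41 with the inhibitor, CRY2 between the controls, CIART, NFIL3 and CRISPLD2 with the mimic and, with no test, PER2 with the mimic. Of 1308 single-gene values, 1272 kept their side of the threshold or, with no test, stayed within the spread between replicates, 24 lost a call, 11 gained one and 1 moved (PER1 with the mimic, -1.28 without mimic replicate 3). With array weights, a fit whose weights stopped short of convergence, the inhibitor comparison called 1 clock gene in place of 0 and 2 further components and cofactors in place of 0. In the same fit the control comparison called 10 of these in place of 3 and 7 outputs and inputs in place of 4, and the mimic comparison 3 outputs and inputs in place of 0. Over all 16468 tested genes that fit called 1260 in place of 255 with the inhibitor. It called 4623 in place of 1667 between the controls and 529 in place of 125 with the mimic. With only the 6 libraries of a comparison, the control counts were 6 and 8, where 3913 of all 16468 genes were called in place of 1667. With the inhibitor, 1 further component (CIART) was called at a mean of at least 20, with median of ratios scaling and with library totals, and without a trend no output or input was called (0 in place of 1). In that order the inhibitor comparison called 274 of 13815 genes, then 290, 315 and 155 of 16468.

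Leaving out 1 library gave 0 to 1 clock genes with the inhibitor (1 without mimic replicate 3) and 1 to 2 between the controls. For further components and cofactors it gave 0 to 1 with the inhibitor and 0 to 6 between the controls (0 without mimic control replicate 3, 1 without inhibitor control replicate 1, 6 without mimic replicate 3). For outputs and inputs it gave 0 to 1 with the inhibitor, 3 to 7 between the controls and 0 to 3 with the mimic (3 without mimic replicate 3). Calls over all 16468 genes moved too. Without mimic replicate 3 they were 653 with the inhibitor, 3751 between the controls and 797 with the mimic. Between the controls they were 305 without mimic control replicate 3 and 271 without inhibitor control replicate 1.

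Over all genes, higher and lower calls were 126 and 129 with the inhibitor, 781 and 886 between the controls and 113 and 12 with the mimic. They became 651 and 609, 2176 and 2447, and 352 and 177 with array weights; 79 and 76, 417 and 487, and 67 and 10 without trend; 1886 and 2027 (controls) and 20 and 0 (mimic) within 6 libraries; 962 in all (controls) with no filter; 121 and 169 (inhibitor) by median of ratios and 108 and 207 by totals. Leaving out 1 library gave 88 calls (without inhibitor replicate 1) to 653 with the inhibitor, 271 (without inhibitor control replicate 1) to 3751 between the controls and 46 (without mimic control replicate 1) to 797 with the mimic, each highest without mimic replicate 3. The cause of these shifts was not tested.

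Same-numbered libraries of the compared groups did not deviate together (correlations of -0.12 to 0.063), so the numbers were not taken as pairs. With the replicate block, 0 clock genes were called with the inhibitor and 2 between the controls, as without it, and over all genes 95 and 91, 494 and 523, and 89 and 4. Depth limits PER2 most, which is not tested at a mean of at least 20.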
